A study of Mus musculus and Mus musculus
Rattus norvegicus with 30 samples.

Results

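The 10 transcription regulators and related genes of the naive pluripotent state described here were chosen by name: Klf2, Klf4, Klf5, Esrrb, Tfcp2l1, Zfp42, Tbx3, Prdm14, Nr0b1 and Fbxo15. They are 10 of the 19919 genes that both replicate tables of mouse embryonic stem cells (mESCs) hold, and all 10 were among the 16000 tested. In RMES cells, a fusion of haploid mouse and haploid rat embryonic stem cells whose reads were assigned to the mouse or the rat genome, all 10 were among the 34923 mouse genes and 9 among the 25245 rat genes. Zfp42 was not analysed on the rat allele.

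Naive pluripotency is the state of the preimplantation epiblast, and mouse cells hold it in culture when LIF is present and the Mek and Gsk3 kinases are inhibited. LIF acts through Stat3, which is known to maintain Klf4 and Tfcp2l1, while Esrrb is a Gsk3-linked target that Tcf7l1 represses. Klf2 is known to be stabilised when Mek is inhibited, and Prdm14 represses Fgf receptor signalling and the de novo DNA methyltransferases. Cdx2 is a homeodomain factor of the trophectoderm, and its forced expression turns embryonic stem cells towards trophoblast.

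The mESC groups were WT and 9 lines that overexpressed (OE) Flag-tagged Cdx2 from a doxycycline-inducible lentivirus, with 2 libraries each. mCdx2-OE carried mouse Cdx2, rCdx2-OE carried rat Cdx2, and 7 mutants (rCdx2_R1, R2, R3, R12, R13, R23 and R123) carried rat Cdx2 with 1 or more of 3 amino acids of the DNA-binding domain set to their mouse state. Change 1 puts phenylalanine for tyrosine, change 2 serine for alanine, and change 3 deletes an asparagine. RMES cells were WT (2 libraries), mCdx2-OE (1) and rCdx2-OE (1). Doxycycline was given for 48 h to the mCdx2-OE and rCdx2-OE mESC lines, and its time for the mutants is not given in the sources used here. For the mCdx2-OE and rCdx2-OE RMES lines the study also describes 48 h of doxycycline. Cells of both kinds were kept in N2B27 medium with PD0325901, Chir99021 and mLIF, and the medium during induction is not given in the sources used here. The study describes a comparison of cells before and after induction, but the labels call the control only WT, without its vector or doxycycline state, and do not tell if libraries came from separate cultures, and the lines were made by lentiviral transduction, so p-values measure the spread between these libraries.

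Total counts were 74960057 and 94686029 in the WT mESC libraries and 12698443 to 24315929 in the 18 induced ones. Cdx2 was at 1.21 to 1.36 CPM (counts scaled to library size, normalised by trimmed mean of M-values) in WT and 37.2 to 147 CPM in the induced libraries, which separates WT from induced libraries but does not tell the 9 constructs apart. Xist, the RNA that coats an inactive X chromosome, was at 4.24 to 4.71 CPM in WT, 69.6 to 102 CPM in mCdx2-OE and rCdx2-OE, and 1.65 to 8.49 CPM in the mutants, so the lines with unaltered Cdx2 stood apart from WT and mutants.

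Of the genes, 9 lie, on GRCm38 by the GENCODE vM21 annotation, at chr8:72319033-72321656 (Klf2, + strand), chr4:55527143-55532466 (Klf4, - strand), chr14:99298691-99315036 (Klf5, + strand), chr12:86361117-86521628 (Esrrb, + strand), chr1:118627945-118685168 (Tfcp2l1, + strand), chr8:43295063-43306980 (Zfp42, - strand), chr5:119670669-119684724 (Tbx3, + strand), chr1:13113457-13127163 (Prdm14, - strand) and chrX:86191764-86195947 (Nr0b1, + strand). Fbxo15 is on another autosome, and its position is not given here.

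In WT mESCs the 10 genes spanned a wide range of levels per transcript length (CPM per kb of annotated exon, over the 2 libraries). Klf2 stood highest at 161 to 162 and Esrrb, an orphan nuclear receptor, followed at 104 to 106. Zfp42, the zinc finger protein also called Rex1, was at 67.5 to 68.9, Fbxo15, an F-box protein, at 64.1 to 65.2, and Nr0b1, the nuclear receptor also called Dax1, at 60.7 to 62.5. Tfcp2l1 was at 46.5 to 48.5, Klf4 at 43.0 to 45.8, Klf5 at 30.2 to 30.9, Tbx3, a T-box factor, at 29.3 to 30.4, and Prdm14 lowest at 10.7 to 11.3. Only the neighbours Klf5 and Tbx3 overlapped in the 2 libraries.

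The naive factors moved in both directions in mESCs with Cdx2. Klf2 and Nr0b1 fell by over 2-fold in mCdx2-OE and rCdx2-OE, Zfp42, Esrrb and Klf5 fell by less, and Klf4, Tfcp2l1, Prdm14 and Fbxo15 rose, with Tbx3 passing in mCdx2-OE. All 10 passed an adjusted p of 0.05 in mCdx2-OE and 9 in rCdx2-OE, where 69.7% and 70.6% of all tested genes did. Past 2-fold as well, there were 2 members in each, Klf2 and Nr0b1, beside 33.4% and 34.5% of all genes. With 10 members, this count is too near those shares to be read as a difference. The median log2 fold change of the 10 was 0.042 in mCdx2-OE and -0.11 in rCdx2-OE, against -0.028 and -0.036 over all genes. All 9 comparisons used the same 2 WT libraries. In bulk RNA, fewer cells that express a gene and less RNA per cell cannot be told apart.

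Nr0b1, which binds Oct4 and Esrrb and limits their activity, showed the largest fall in mCdx2-OE and rCdx2-OE. It was at 113 and 109.8 CPM in WT, 29.4 and 30.7 in mCdx2-OE and 26.4 and 27.3 in rCdx2-OE, and the lowest, median and highest of the 14 mutant libraries were 52.4, 61.3 and 66.8 CPM. The 3 sets of libraries did not overlap, with the mutants between. Against WT, Nr0b1 fell in mCdx2-OE (log2 fold change -1.89, SE 0.090, adjusted p = 2.94e-11, edgeR quasi-likelihood test here and throughout unless named) and in rCdx2-OE (log2 fold change -2.05, SE 0.091, adjusted p = 1.14e-11). In the 7 mutants its log2 fold change was -1.01 to -0.76, and it fell in all 7. Nr0b1 lies on the X chromosome, where the median log2 fold change of 553 tested genes was 0.59 in mCdx2-OE and 0.53 in rCdx2-OE, and 0.10 to 0.19 in the mutants. Less that median, Nr0b1 was at -2.48 in mCdx2-OE and -2.58 in rCdx2-OE.

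Klf2, a Krüppel-like factor that binds many naive enhancers together with Klf4 and Klf5, fell in all 9 lines to a similar level. It was at 299 and 297 CPM in WT, 134 and 132 in mCdx2-OE, 133 and 130.4 in rCdx2-OE, and 106, 142 and 162 CPM at the lowest, median and highest of the mutant libraries. No induced library reached WT, and the mutants spanned the values of the other induced lines. The changes were -1.16 in mCdx2-OE (SE 0.086, adjusted p = 6.15e-09), -1.18 in rCdx2-OE and -1.32 to -0.92 in the mutants on the log2 scale.

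The other 2 Krüppel-like factors went other ways. Klf4 was at 131 and 139.7 CPM in WT, 194 and 211 in mCdx2-OE, 175 and 188 in rCdx2-OE and 231, 240.2 and 262 CPM over the mutants, so WT was lowest and mutants highest without overlap. It rose in mCdx2-OE (log2 fold change 0.58, SE 0.070, adjusted p = 1.73e-06) and in all 7 mutants (log2 0.78 to 0.91). Klf5, which is also needed for the trophectoderm, was at 157 and 161 CPM in WT, 131 and 142 in mCdx2-OE, 113 and 129 in rCdx2-OE and 232, 245 and 272 CPM over the mutants. It fell in mCdx2-OE (log2 fold change -0.22, SE 0.076, adjusted p = 0.0152) and rCdx2-OE (log2 fold change -0.40, SE 0.077, adjusted p = 2.14e-04) and rose in all 7 mutants (log2 0.57 to 0.73), and no mutant library overlapped the other lines. The mCdx2-OE call for Klf5 was lost without mCdx2-OE replicate 1 (log2 -0.17) and without WT replicate 2 (log2 -0.21), as well as without replicate 1 (log2 -0.18) or replicate 2 (log2 -0.26) of both conditions.

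Esrrb, which can replace Nanog in reprogramming, moved in the same directions as Klf5. It was at 644 and 629 CPM in WT, 462 and 494 in mCdx2-OE, 410.1 and 444 in rCdx2-OE and 669.9, 783 and 834 CPM over the mutants. Its log2 fold changes were -0.41 (adjusted p = 0.00125) and -0.58 (adjusted p = 6.22e-05) in mCdx2-OE and rCdx2-OE and 0.19 to 0.35 in the mutants, of which 5 passed the threshold. Calls of R1, R2 and R13 were lost when either WT library or replicate 2 of the mutant was left out, with log2 values of 0.15 to 0.29. Those of R3 (log2 0.29) and R12 (log2 0.29) were lost when replicate 2 of both conditions was left out, so each of the 5 calls rests on the libraries kept. Zfp42, a marker of naive cells, was at 129.6 and 127 CPM in WT, 69.7 and 83.4 in mCdx2-OE, 68.6 and 79.6 in rCdx2-OE and 111, 121 and 131 CPM over the mutants. It fell in mCdx2-OE (log2 fold change -0.75, SE 0.10, adjusted p = 4.87e-06) and rCdx2-OE (log2 -0.80, adjusted p = 2.45e-06). In the mutants its log2 fold change was -0.15 to 0.0044 and none of the 7 passed the threshold, with mutant and WT libraries overlapping.

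Tfcp2l1, a Grainyhead-family factor downstream of LIF and Stat3, rose most. It was at 439 and 458 CPM in WT, 768 and 728 in mCdx2-OE, 687 and 663 in rCdx2-OE and 861, 988 and 1060 CPM over the mutants, in 3 sets that did not overlap. The log2 fold change was 0.74 (SE 0.069, adjusted p = 8.80e-08) in mCdx2-OE, 0.59 in rCdx2-OE and 0.97 to 1.23 in the mutants. Fbxo15 was at 162 and 159.7 CPM in WT, 227 and 219.8 in mCdx2-OE, 209 and 194 in rCdx2-OE and 243, 277 and 327 CPM over the mutants, and rose in all 9 lines (log2 0.47 in mCdx2-OE, 0.32 in rCdx2-OE and 0.61 to 0.94 in the mutants).

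Prdm14, a PR-domain factor of naive and germ cells, was at 28.9 and 27.5 CPM in WT, 43.2 and 37.8 in mCdx2-OE, 37.8 and 34.2 in rCdx2-OE and 37.0, 54.1 and 60.3 CPM over the mutants. It rose in all 9 lines, by 0.53 in mCdx2-OE (adjusted p = 5.10e-05), 0.36 in rCdx2-OE and 0.46 to 1.05 in the mutants on the log2 scale. Tbx3 was at 194 and 202 CPM in WT, 236 and 255 in mCdx2-OE, 209 and 237 in rCdx2-OE and 221, 256 and 306 CPM over the mutants. It rose in mCdx2-OE (log2 fold change 0.31, SE 0.081, adjusted p = 0.00279) and in the 7 mutants (log2 0.23 to 0.58), and its value in rCdx2-OE was 0.17 with adjusted p = 0.0656. Its R123 call was lost without either WT library (log2 0.20 and 0.25) or R123 replicate 2 (log2 0.16), its R23 call was lost without WT replicate 1 (log2 0.24), and R13 lost its call without replicate 2 of both conditions (log2 0.27). R23 and R123 also lost theirs without either replicate of both conditions, and rCdx2-OE passed without its replicate 1 (log2 0.26).

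**Figure D1:**
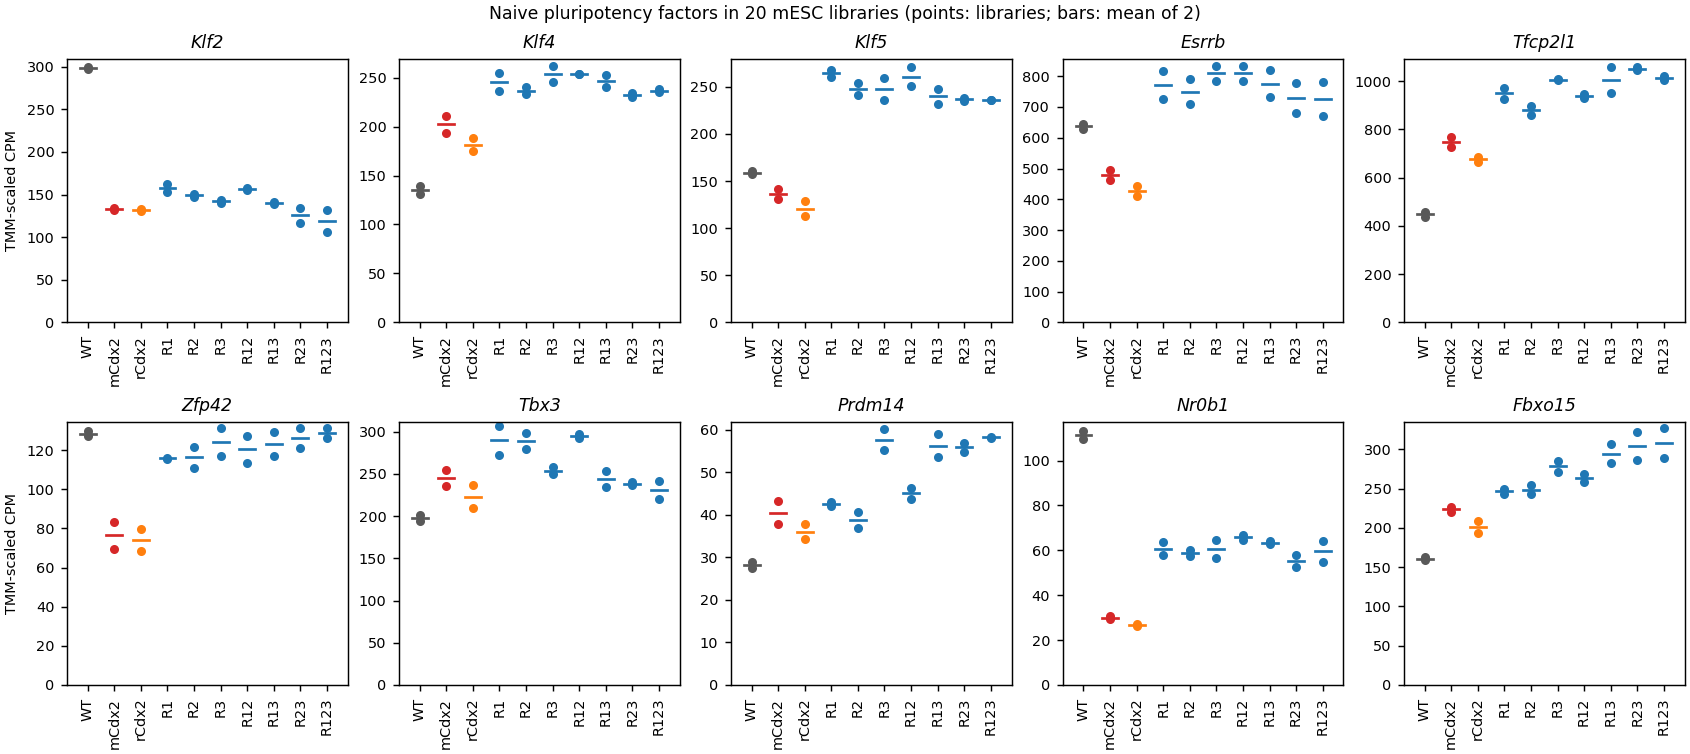
TMM-scaled CPM of each factor in the 20 mESC libraries, from 0 on the vertical axis. Points are libraries, bars the mean of the 2 libraries of a condition, and colours mark WT (grey), mCdx2-OE (red), rCdx2-OE (orange) and the 7 mutants (blue). Klf2 and Nr0b1 lie below WT in every induced library, while Tfcp2l1 and Klf4 lie above it.

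The mutant lines were read in the same way. Between 8 and 9 members passed the adjusted p in each, where in the order R1, R2, R3, R12, R13, R23 and R123 the share of all genes was 60.8%, 60.9%, 63.7%, 61.7%, 65.5%, 66.5% and 66.8%. Past 2-fold as well there were 1, 0, 3, 1, 2, 3 and 3 members in that order, beside 23.2%, 23.4%, 25.6%, 23.7%, 27.8%, 28.7% and 28.9% of all genes. The members past 2-fold were Tfcp2l1 in 6 mutants, Klf2 in 4, Prdm14 in 2 and Nr0b1 in 1. The median log2 fold change of the 10 was 0.40 to 0.63 in the 7 mutants.

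**Figure D2:**
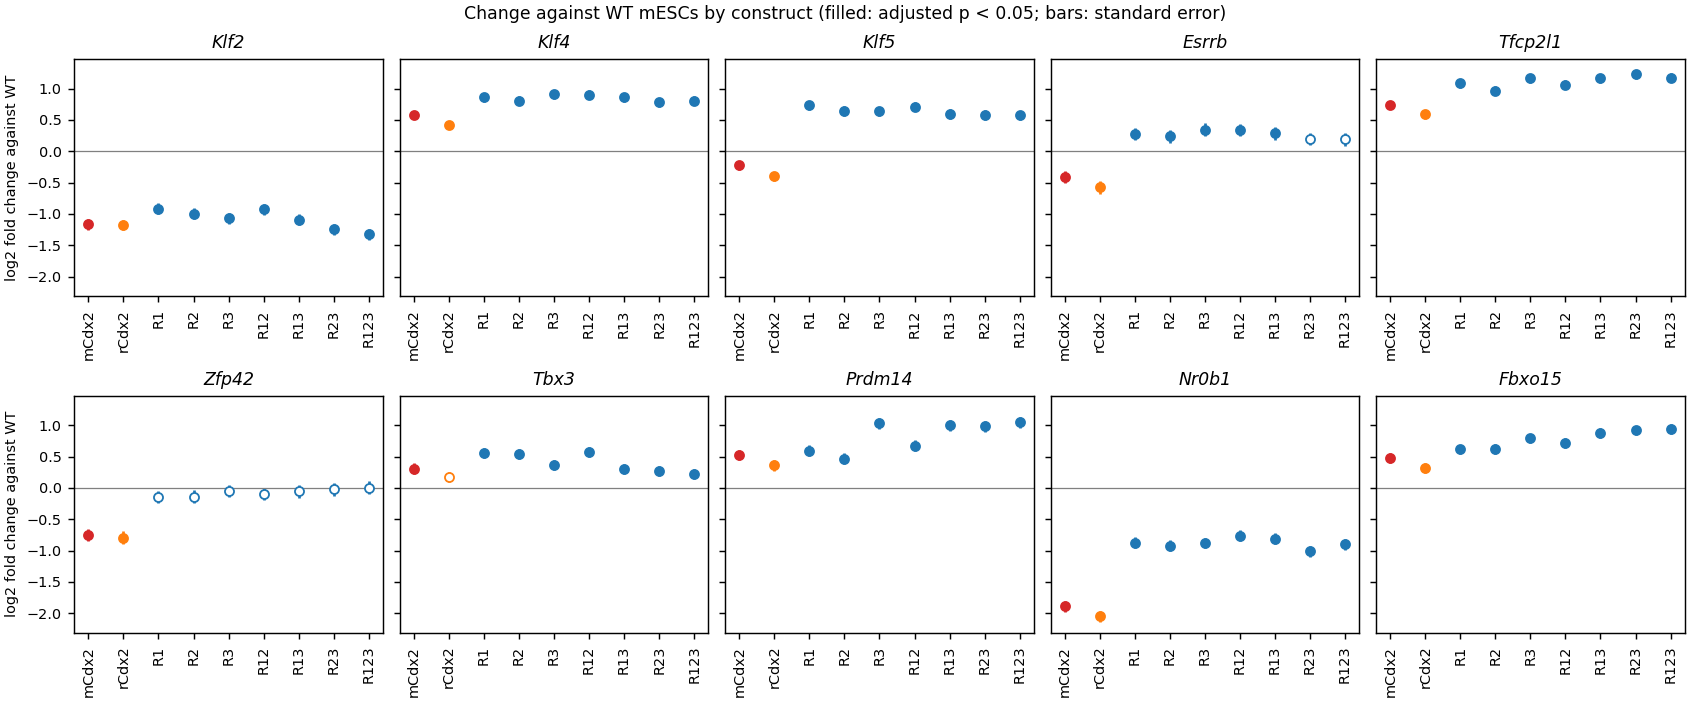
log2 fold change against WT mESCs for each factor and construct, with the standard error as bars. Filled points passed an adjusted p of 0.05 and open points did not. Klf5 and Esrrb lie below 0 in mCdx2-OE and rCdx2-OE and above it in the mutants, and Zfp42 lies near 0 in the mutants.

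Whether the constructs differ among themselves was tested with contrasts that leave WT out. All 10 members differed among the 9 constructs in a joint test that 56.9% of all genes passed. No member differed between mCdx2-OE and rCdx2-OE (3 of all genes, 0.0187%), where the members' log2 differences were 0.013 to 0.17 with standard errors of 0.068 to 0.10, all in the direction of mCdx2-OE. The mean of the 7 mutants less the mean of mCdx2-OE and rCdx2-OE, a contrast chosen after the values had been seen, was above 0 for all 10 and passed for 9, where 64.0% of all genes passed. It was largest for Nr0b1 (log2 difference 1.09, SE 0.055, adjusted p = 4.29e-11), then Klf5 (0.95), Esrrb (0.76) and Zfp42 (0.70). Tfcp2l1 (0.46), Prdm14 (0.39), Fbxo15 (0.38), Klf4 (0.35) and Tbx3 (0.16) followed, and Klf2 did not pass (log2 difference 0.090, SE 0.049, adjusted p = 0.122). Tbx3 lost its call without rCdx2-OE replicate 1 (log2 0.12) and Klf2 passed without R123 replicate 1 (log2 0.11). The sets also differ in Xist and in the median of X genes, which was -0.46 in this contrast, and the part of either in these values was not tested.

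Among the 8 rat-derived constructs, fitted with 1 term for each amino acid change, no member passed for change 1 or 2. The only construct without a change, rCdx2-OE, stood apart from all mutants in some members. Nr0b1 was at 26.4 and 27.3 CPM in it and 52.4 to 66.8 CPM in the mutants. This gap did not follow the 3 amino acids alone. mCdx2-OE and R123 both hold the mouse state of all 3, and Nr0b1 was at 29.4 and 30.7 CPM in mCdx2-OE and 54.9 and 64.3 in R123. What sets the mutant lines apart was not tested. The SE of Nr0b1 was 0.15 for change 1, against 0.055 for the mutants less mCdx2-OE and rCdx2-OE. Additive terms do not describe such a gap, so the lack of calls does not show that changes 1 and 2 have no effect. For change 1, 0% of all genes passed with edgeR (1995 had an unadjusted p under 0.05 and DESeq2 called 24), and for change 2 0% did (1569 at an unadjusted p under 0.05, and 2 with DESeq2). For change 3, the asparagine deletion, 5 members passed, as did 36.6% of all genes. Prdm14 had the largest difference, at 53.6, 57.5 and 60.3 CPM in the 8 libraries with change 3 and 37.0, 42.6 and 46.3 CPM in the 6 mutant libraries without it (lowest, median and highest). These libraries did not overlap, and Prdm14 was higher with change 3 (log2 difference 0.49, SE 0.052, adjusted p = 3.28e-06). Fbxo15 was at 271, 288 and 327 CPM in the 8 libraries with change 3 and 243, 252 and 269 CPM in the 6 mutant libraries without it, again without overlap (log2 difference 0.31, SE 0.049, adjusted p = 1.62e-04). Tfcp2l1 (log2 difference 0.25, SE 0.065, adjusted p = 0.00618) and Zfp42 (log2 difference 0.25, SE 0.088, adjusted p = 0.0331) were also higher. The fit includes rCdx2-OE, and among the mutants alone Zfp42 overlapped, at 117 to 131 CPM with change 3 and 111 to 127 CPM without it, as did Tfcp2l1, at 949 to 1060 and 861 to 972 CPM. Klf2 was lower (log2 difference -0.18, SE 0.065, adjusted p = 0.0379), and Tbx3 missed the threshold (log2 -0.18, adjusted p = 0.0502), though its 8 libraries with change 3, at 221 to 258 CPM, lay below the 6 mutant libraries without it at 273 to 306 CPM. mCdx2-OE also holds the mouse state of change 3 but was not in this fit. Prdm14 was at 43.2 and 37.8 CPM in mCdx2-OE and 37.8 and 34.2 in rCdx2-OE. Fbxo15 was at 227 and 219.8 CPM in mCdx2-OE and 209 and 194 in rCdx2-OE. No member differed between these 2 lines, so the differences with change 3 were seen among rat-derived constructs only.

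Cdx2 itself was at 37.2 to 94.4 CPM in the 8 libraries with change 3 and 60.6 to 147 CPM in the other 6 mutant libraries, and its part in the differences seen with change 3 was not tested. Over the 18 induced libraries the log2 Cdx2 level was related to 0.535% of all genes and to no member. The fit had no term for the gap between the mutants and the lines with unaltered Cdx2. That gap widens the spread, with a slope SE of 0.15 for Nr0b1 against 0.055 in the contrast of these sets. The lack of calls thus does not show that the members are unrelated to the Cdx2 level. Reads of the rat-derived constructs were aligned to the mouse gene, so their Cdx2 level may not be on the scale of mCdx2-OE. The steepest slope among the members was that of Prdm14, at -0.25 per log2 unit of Cdx2 (SE 0.078, adjusted p = 0.108), and with the replicate number in the fit Prdm14 passed (slope -0.38).

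Genes that act with the 10 were counted from lists, at an adjusted p of 0.05 and 2-fold in mCdx2-OE against WT, a rule that 33.4% of all genes met. Of 12 other naive-state genes, 0 rose and 6 fell, with Utf1 lowest (log2 -3.20, adjusted p = 1.11e-11). Of the 3 core factors, only Pou5f1 passed this rule, and it fell (log2 -1.47, adjusted p = 3.02e-05). At an adjusted p alone, 2 of the 3 fell and 1 rose. Of 8 LIF signalling genes, 1 rose, the kinase Jak1 (log2 2.24, adjusted p = 3.39e-13), and the receptor Lifr was at log2 -0.95. Formative and primed genes counted 0 up and 4 down of 7, with Lef1 the lowest (log2 -2.48, adjusted p = 2.99e-08). Trophoblast genes counted 5 up and 0 down of 7, and 1 of the 7 fell at an adjusted p alone. Cdx2 led the 5 that rose, but it is the induced gene, so its rise was fixed by the design. The keratin Krt18 came next (log2 4.68, adjusted p = 3.63e-14). Primitive endoderm genes counted 4 up and 0 down of 6, led by Gata6 (log2 3.12, adjusted p = 1.16e-08). Their summed level was low, at 5.78 to 6.25 CPM in WT, 25.5 to 33.0 in mCdx2-OE and rCdx2-OE, and 16.6 to 27.0 in the mutants. The summed level of the trophoblast genes other than Cdx2 was 155 to 156 CPM in WT, 549.7 to 749 in mCdx2-OE and rCdx2-OE, and 155 to 277 in the mutants. The summed level of 5 fibroblast genes, led down by Col1a2 (log2 -4.47, adjusted p = 9.78e-08), was 30.1 to 30.2 CPM in WT and 2.25 to 5.61 CPM in the induced libraries, with none of the 5 at 0, and its part in the members' values was not tested.

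The genes whose pattern was most like each member over the 20 mESC libraries, by Pearson's r of log2(CPM + 1), are given as a description, since the libraries share conditions and depth. They were Fscn1 (r = 0.985) and Abhd17a (r = 0.981) for Klf2, Kat6b (r = 0.977) and Anapc10 (r = 0.972) for Klf4, and Epha4 (r = 0.982) and Tars (r = 0.975) for Klf5. For Esrrb they were Gnpda1 (r = 0.975) and Gdf3 (r = 0.969), for Tfcp2l1 Slit2 (r = 0.980) and Car8 (r = 0.979), and for Zfp42 Armt1 (r = 0.973) and Qdpr (r = 0.970). For Tbx3 they were Mylip (r = 0.932) and Mllt3 (r = 0.930), for Prdm14 Vwf (r = 0.972) and Igf2r (r = 0.968), for Nr0b1 Shmt1 (r = 0.983) and Apoe (r = 0.981), and for Fbxo15 4930452B06Rik (r = 0.979) and Chmp4c (r = 0.975). No member was among the 2 most similar genes of another member. The closest pairs of members were Klf4 with Tfcp2l1 (r = 0.945), Fbxo15 with Tfcp2l1 (r = 0.942) and Klf5 with Esrrb (r = 0.928).

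In RMES cells the libraries labelled WT and induced differed in more than the construct, and this bears on each RMES value. Cdx2 was already present in WT, at 127 and 129 CPM on the mouse allele and 439.6 and 453 CPM on the rat allele. It was at 968 (mouse) and 47.2 (rat) CPM in mCdx2-OE and at 4.45 and 879.8 CPM in rCdx2-OE, so each induced library was high on the allele of its construct. Mitochondrial genes took 2.32% to 2.65% of mouse counts and 0.00592% to 0.00775% of rat counts in WT, but 0.0259% to 0.0313% of mouse and 13.9% to 14.3% of rat counts in the induced libraries. The part of either in the members' values was not tested.

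On the mouse allele of RMES cells, 9 members fell and Prdm14 rose. All 10 passed the adjusted p, where 81.9% of all genes did, and 7 also passed 2-fold, where 44.5% did. The median of the 10 was -1.34 on the log2 scale, against 0.079 over all genes. Klf5 was at 722 and 704 CPM in WT, 123.3 in mCdx2-OE and 132 in rCdx2-OE (log2 fold change -2.48, SE 0.061, adjusted p = 4.37e-12). Nr0b1 was at 67.2 and 67.1 CPM in WT, 10.6 in mCdx2-OE and 8.18 in rCdx2-OE (log2 fold change -2.84, SE 0.10, adjusted p = 7.95e-11). Both fell far below WT in each induced library, and the 646 tested X genes had a median log2 fold change of 0.38. Tfcp2l1 was at 1860.2 and 1863 CPM in WT, 643 in mCdx2-OE and 655 in rCdx2-OE (log2 fold change -1.52, SE 0.049, adjusted p = 3.20e-11). Fbxo15 was at 201 and 195 CPM in WT, 65.5 in mCdx2-OE and 49.4 in rCdx2-OE (log2 fold change -1.79, SE 0.10, adjusted p = 3.05e-09), and Zfp42 at 144 and 139.7 CPM in WT, 43.5 in mCdx2-OE and 44.2 in rCdx2-OE (log2 fold change -1.69, SE 0.055, adjusted p = 3.48e-11). Klf2 (-1.15) and Tbx3 (-1.03) fell past 2-fold, and Klf4 (-0.79) and Esrrb (-0.77) fell by less. Prdm14 was at 45.4 and 47.5 CPM in WT, 55.8 in mCdx2-OE and 62.8 in rCdx2-OE (log2 fold change 0.35, SE 0.071, adjusted p = 5.26e-04).

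On the rat allele all 8 members that passed the filter on low counts fell. Each passed the adjusted p, where 82.5% of all genes did, and 7 passed 2-fold, where 42.5% did. Klf5 fell most (log2 fold change -2.50, SE 0.067, adjusted p = 9.02e-14), from 257 and 248 CPM in WT to 47.2 in mCdx2-OE and 42.3 in rCdx2-OE. Prdm14 was at 63.7 and 65.9 CPM in WT, 13.5 in mCdx2-OE and 11.7 in rCdx2-OE (log2 fold change -2.37, SE 0.085, adjusted p = 1.91e-12). Esrrb was at 90.1 and 84.3 CPM in WT, 24.1 in mCdx2-OE and 24.0 in rCdx2-OE (log2 fold change -1.86, SE 0.070, adjusted p = 3.09e-12). Fbxo15 (-1.46), Tbx3 (-1.38), Klf2 (-1.05) and Tfcp2l1 (-1.04) also fell past 2-fold, and Klf4 fell by less (-0.77). Rat Nr0b1 had 3 and 1 reads in WT, 4 in mCdx2-OE and 0 in rCdx2-OE, so no fold is given against the floor of 3 reads. Genes of the mouse X chromosome had a median rat share of 41.0% to 44.1%.

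**Figure D3:**
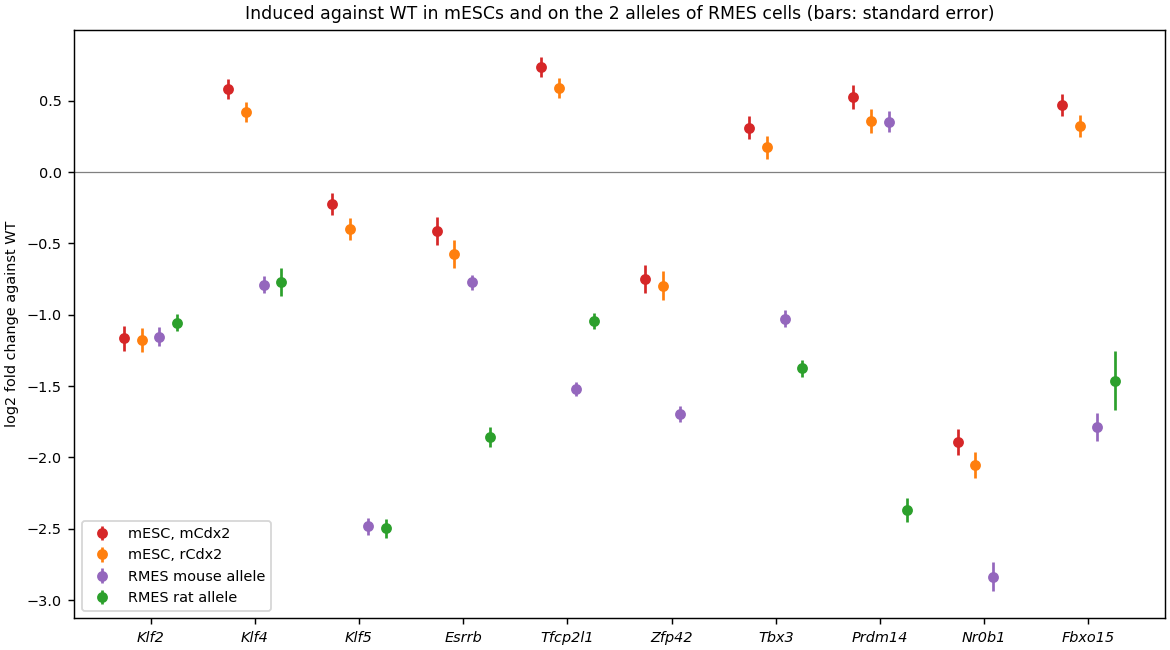
log2 fold change against WT for each factor, in mESCs with mouse or rat Cdx2 and on the 2 alleles of RMES cells, where both induced libraries were set against both WT libraries. Bars are standard errors. Klf4, Tfcp2l1, Tbx3 and Fbxo15 lie above 0 in mESCs and below 0 on both RMES alleles, and Prdm14 parts between alleles.

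The rat and mouse alleles sit in the same cells, and the difference between their responses was tested as an interaction. It passed for 5 of the 9 members tested, where 62.1% of all genes passed. Prdm14 differed most. Its rat share of reads was 54.2% and 53.7% in WT and 17.7% and 14.5% in mCdx2-OE and rCdx2-OE, and the rat response was lower (log2 difference -2.70, SE 0.091, adjusted p = 2.17e-17), the mouse allele rising and the rat allele falling. Esrrb had a rat share of 8.79% and 8.35% in WT and 4.52% and 4.56% in mCdx2-OE and rCdx2-OE and a lower rat response (log2 difference -1.06, SE 0.044, adjusted p = 9.41e-16). Tbx3 was lower on the rat allele (log2 difference -0.32, SE 0.039, adjusted p = 1.40e-07) and Tfcp2l1 higher (log2 difference 0.50, SE 0.023, adjusted p = 6.30e-15), with a Tfcp2l1 rat share of 16.6% and 16.7% in WT and 22.995% and 23.2% in mCdx2-OE and rCdx2-OE. Klf2 passed narrowly (log2 difference 0.12, SE 0.049, adjusted p = 0.0326) and lost its call without WT replicate 1 (log2 0.059) or WT replicate 2 (log2 0.14). Klf4 (0.030), Klf5 (log2 difference 0.0080, SE 0.056, adjusted p = 0.928) and Fbxo15 (log2 difference 0.35, SE 0.16, adjusted p = 0.0600) did not pass, nor did Nr0b1, whose rat allele had 8 reads in all. Each construct had 1 RMES library. Without the mCdx2-OE library 8 members passed, with Klf4 and Klf5 at -0.12 and -0.10, and without the rCdx2-OE library 8 passed, with Klf4 and Klf5 at 0.19 and 0.13, so the direction for these factors rests on which library is kept. Fbxo15 passed without mCdx2-OE (0.61) and was at 0.12 without rCdx2-OE, so its call rests on them too.

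The share of rat reads in WT RMES cells varied among the factors. The median over autosomal gene pairs with enough reads was 44.3% and 44.2% in WT, and 45.8% and 46.2% in mCdx2-OE and rCdx2-OE. Tbx3 and Prdm14 lay above that median in WT and Klf2 slightly above it. Tbx3 was at 57.0% and 57.3% in WT and 52.3% and 53.8% in mCdx2-OE and rCdx2-OE, and Klf2 at 47.1% and 48.5% in WT and 51.3% and 51.5% in mCdx2-OE and rCdx2-OE. Klf4 (25.3% and 26.1% in WT and 29.3% and 25.2% in mCdx2-OE and rCdx2-OE) and Klf5 (23.1% and 22.8% in WT and 25.5% and 22.7% in mCdx2-OE and rCdx2-OE) lay well below it. Fbxo15 gave few rat reads, at 1.88% and 1.99% in WT and 2.21% and 3.10% in mCdx2-OE and rCdx2-OE, and Nr0b1 fewer still. Differences of annotation and mapping between the genomes enter a share in every library alike, so a share in 1 library cannot be told apart from them.

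**Figure D4:**
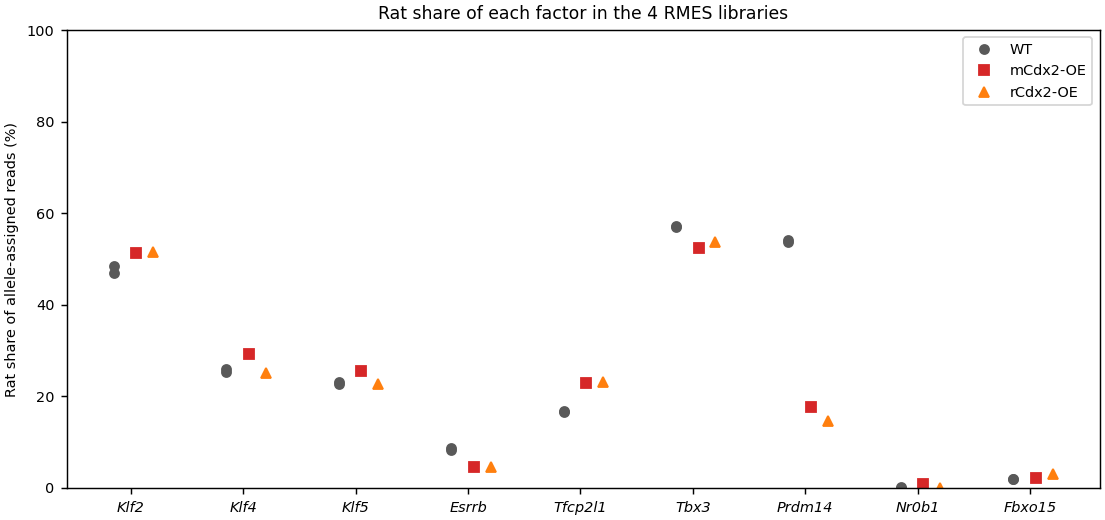
Rat share of allele-assigned reads for the 9 factors in the rat table in each RMES library, in percent. Circles are WT, squares mCdx2-OE and triangles rCdx2-OE. Prdm14 drops from 54.2% and 53.7% to 17.7% and 14.5%, Esrrb from 8.79% and 8.35% to 4.52% and 4.56%, and Tfcp2l1 rises.

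The RMES mouse allele and mESCs were compared directly, as the induced response of RMES cells less that of mCdx2-OE and rCdx2-OE mESCs. The response was lower in RMES cells for 8 members, where 53.2% of all genes differed. The differences were -2.22 for Tfcp2l1, -2.22 for Fbxo15, -2.21 for Klf5, -1.33 for Klf4 and -1.31 for Tbx3 on the log2 scale, with adjusted p of 2.12e-06 or less. Zfp42 (-0.96), Nr0b1 (-0.90) and Esrrb (log2 difference -0.32, SE 0.11, adjusted p = 0.0273) also differed. Klf2 (log2 -0.021, adjusted p = 0.858) and Prdm14 (log2 -0.13, adjusted p = 0.457) did not pass. The RMES reads are those assigned to 1 of 2 genomes, and cell line, assignment and Cdx2 level in WT cannot be told apart here.

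Around the gene starts, 29 Cdx2 ChIP peaks lay within 30 kb of the 10 members in mESCs, and each member had at least 1, where 76.7% of 15817 genes did. The median was 2.5 peaks per member against 2 per gene, and Nr0b1 (6), Zfp42 (5) and Tbx3 (4) had most. Shown next are the central 200 bases of the strongest peak of 5 of the 6 members whose best peak held most reads, because they lie near factors that fell and near Klf4, which rose. The peak of the other, Klf5, overlaps an annotated exon and is not printed. Capitals mark CNATAAA, a form of the Cdx2 recognition sequence in which N is any base, or its reverse complement TTTATNG. These letters were found in 45.4% of all 91665 mESC Cdx2 peaks, 9.98% of all ATAC peaks and 16 of the 29 member peaks, in windows of the same length.
Zfp42, chr8:43290459-43290658, GRCm38, + strand: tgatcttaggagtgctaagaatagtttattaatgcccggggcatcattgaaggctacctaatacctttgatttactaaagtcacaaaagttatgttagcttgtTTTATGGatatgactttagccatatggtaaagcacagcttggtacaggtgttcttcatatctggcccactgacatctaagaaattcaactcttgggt
Klf4, chr4:55534635-55534834, GRCm38, + strand: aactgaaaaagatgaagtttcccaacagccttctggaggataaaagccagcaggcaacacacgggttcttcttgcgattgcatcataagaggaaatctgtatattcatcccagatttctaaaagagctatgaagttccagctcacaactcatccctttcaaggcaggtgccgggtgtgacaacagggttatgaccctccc
Nr0b1, chrX:86194828-86195027, GRCm38, + strand: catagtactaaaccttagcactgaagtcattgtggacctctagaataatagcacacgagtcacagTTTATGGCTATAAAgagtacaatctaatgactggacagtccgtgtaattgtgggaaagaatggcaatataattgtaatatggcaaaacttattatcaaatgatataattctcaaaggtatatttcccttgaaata
Esrrb, chr12:86379582-86379781, GRCm38, + strand: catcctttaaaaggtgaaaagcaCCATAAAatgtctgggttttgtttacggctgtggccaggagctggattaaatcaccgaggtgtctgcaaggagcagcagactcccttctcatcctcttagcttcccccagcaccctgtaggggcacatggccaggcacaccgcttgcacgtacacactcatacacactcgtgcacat
Klf2, chr8:72315063-72315262, GRCm38, + strand: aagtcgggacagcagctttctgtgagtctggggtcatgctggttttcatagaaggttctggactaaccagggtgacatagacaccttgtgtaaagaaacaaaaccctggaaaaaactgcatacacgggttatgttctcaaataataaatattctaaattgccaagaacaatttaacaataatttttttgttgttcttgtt

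Zfp42 had the strongest of these peaks and 1 match in the central window. It lay 16.4 kb beyond the gene start, past the end of the gene, with 391 scaled reads in mCdx2-OE and 339 in rCdx2-OE, above 99.4% of all peaks. The Klf4 peak, upstream by 2.27 kb, held 214 scaled reads in mCdx2-OE and 259 in rCdx2-OE, above 97.6% of all peaks, and no match. The Nr0b1 peak lay in its intron 3.16 kb into the gene with 177 scaled reads in mCdx2-OE and 188 in rCdx2-OE, above 95.4% of all peaks, and holds 2 matches on opposite strands, side by side. The Klf5 peak overlapped an annotated exon 6.61 kb into the gene (179 scaled reads in mCdx2-OE and 153 in rCdx2-OE, above 94.3% of all peaks). The Esrrb peak lay in an intron at 18.6 kb (122 scaled reads in mCdx2-OE and 126 in rCdx2-OE, above 89.7% of all peaks) with 1 match, and the Klf2 peak 3.87 kb upstream (131 scaled reads in mCdx2-OE and 104 in rCdx2-OE, above 88.7% of all peaks) without one. The absence of a match says only that these letters are not in the window.

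The columns of the ChIP table carry the letters M and R, read here as mouse and rat Cdx2 after the other labels, and the label of the rat Cdx2 library also names mouse Cdx2 in its description, so which of each pair of values is which rests on those letters. The other members had weaker peaks. The best peak held 54.9 and 56.2 scaled reads (mCdx2-OE and rCdx2-OE) for Tbx3, 39.7 and 46.7 for Prdm14, 31.2 and 33.9 for Fbxo15 and 16.1 and 21.2 for Tfcp2l1, whose only peak was above 1.59% of all peaks. Over the 29 peaks reads with mouse over those with rat Cdx2 had a median log2 ratio of -0.035, with 1 library each and so no test. In RMES cells, 18 peaks on the mouse genome lay near 7 members, where 65.3% of genes had one, and 17 of the 29 mESC peaks overlapped an RMES peak, where 64.8% of all mESC peaks did. Tfcp2l1, Prdm14 and Fbxo15 had none within 30 kb in RMES cells.

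Chromatin accessibility was measured by ATAC-seq in 1 WT and 1 mCdx2-OE mESC library, with 6109353 and 8277850 reads in peaks, so the intervals given cover counting error only and there is no replicate check. A peak was called opened or closed at a 2-fold change of scaled reads and at least 40 reads. Of 120 ATAC peaks within 30 kb of the members, 9 opened and 28 closed (7.50% and 23.3%), where 9.56% and 14.3% of all 122350 peaks did. The number closed falls to 8 when the libraries are not scaled to a common total. Closed peaks lay near 9 members, where 50.8% of genes had one, and opened peaks near 4, where 36.6% did. The members had more ATAC peaks to begin with, a median of 12 against 7 per gene. A Cdx2 peak overlapped 4 of the 9 opened and 1 of the 28 closed peaks, where 58.3% of all opened and 2.97% of all closed peaks had one.

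An ATAC peak lay over the gene start of 9 members, and none of these passed 2-fold. Their log2 ratios ran from -0.83 (Prdm14, 95% interval -1.19 to -0.49) to 0.47 (Tfcp2l1, 95% interval 0.16 to 0.78). The counting interval also left out 0 for Zfp42 (-0.45), Fbxo15 (-0.37) and Klf4 (0.28). Esrrb had no ATAC peak within 5 kb of its outermost annotated start. The 2 strongest openings near members were also at Cdx2 peaks. In the downstream Zfp42 peak there were 6 reads in WT and 65 in mCdx2-OE (log2 ratio 2.83, 95% interval 1.80 to 4.50). In the Esrrb intron there were 21 reads in WT and 209 in mCdx2-OE (log2 ratio 2.83, 95% interval 2.23 to 3.60). RNA of both genes was lower in mCdx2-OE than in WT. A Klf5 peak over an annotated exon, also at a Cdx2 peak, had 12 reads in WT and 63 in mCdx2-OE (log2 ratio 1.88, 95% interval 1.05 to 2.98), and a Prdm14 peak downstream had 10 reads in WT and 35 in mCdx2-OE (log2 ratio 1.30, 95% interval 0.32 to 2.55). The remaining opened peaks were 2 more at Klf5 (log2 1.59 and 1.09), 2 at Zfp42 (1.34 and 1.07) and 1 at Esrrb (1.39).

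Klf2 had the most closed peaks, 9 of its 22, with log2 ratios of -2.85 to -1.03, and the deepest, downstream, had 53 reads in WT and 9 in mCdx2-OE (log2 ratio -2.85, 95% interval -4.20 to -1.96). Of all genes, 99.9% had fewer closed peaks, and 99.5% had fewer ATAC peaks of any kind. Closure was not limited to members that fell. Tfcp2l1 had 4 closed peaks (-2.16 to -1.06) and Fbxo15 4 (-2.65 to -1.03), and both rose. The upstream Fbxo15 peak with the deepest closure had 102 reads in WT and 21 in mCdx2-OE (log2 ratio -2.65, 95% interval -3.47 to -2.03). Nr0b1 had 2 closed peaks (-1.76 to -1.03) on a chromosome whose 3031 ATAC peaks had a median log2 ratio of 1.03. Klf4 (-1.61 to -1.14), Klf5 (-1.21 to -1.06), Tbx3 (-1.31 to -1.11) and Prdm14 (-1.20 to -1.06) had 2 each, and Esrrb had 1 (-1.92). Zfp42 had none. Esrrb is long, and over its whole gene and 30 kb around it, a window chosen after the data were seen, there were 45 ATAC peaks, of which 14 closed and 2 opened, and 10 Cdx2 peaks.

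**Figure D5:**
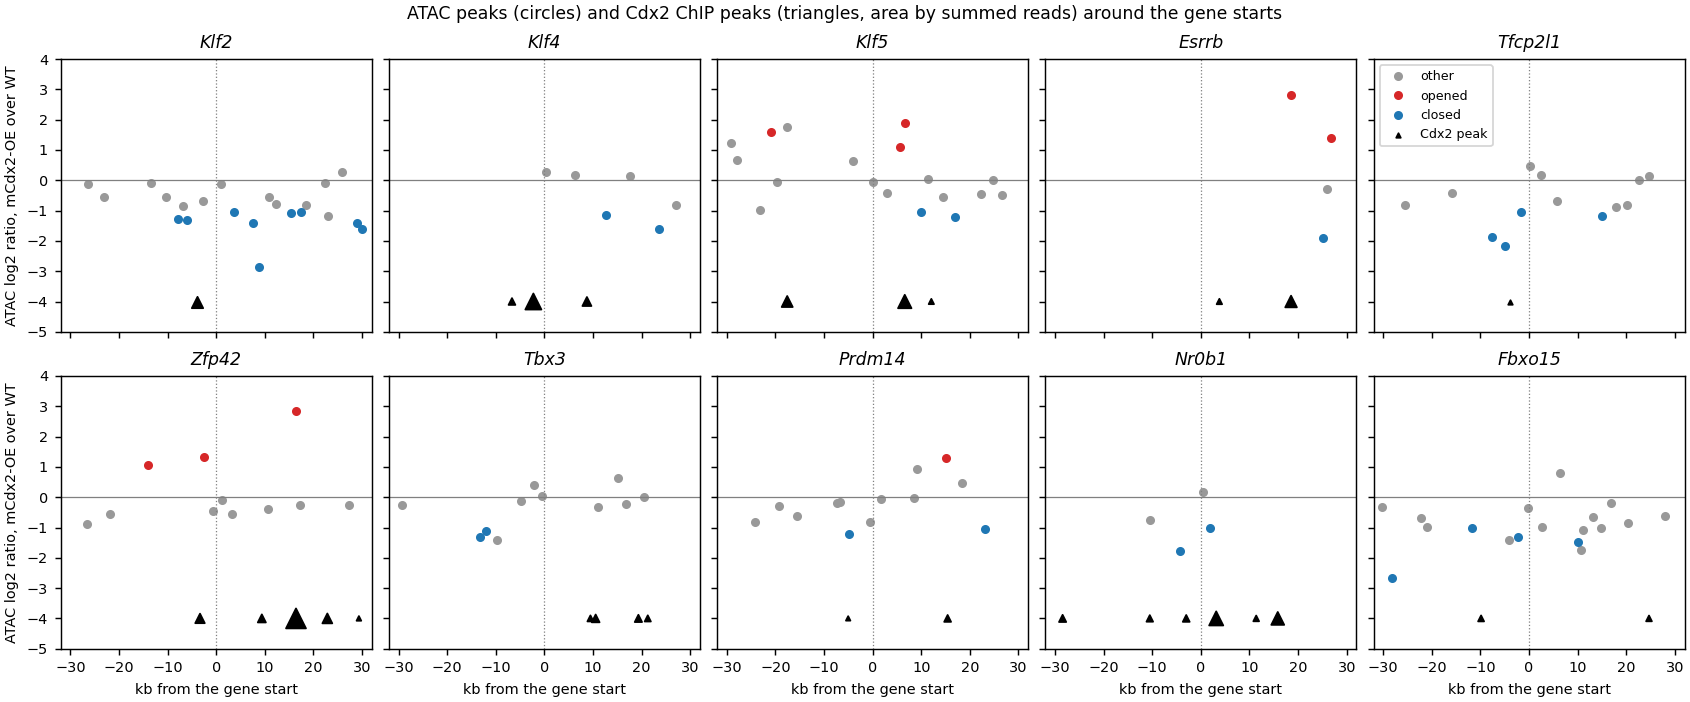
ATAC log2 ratio of mCdx2-OE to WT reads for each peak against its distance from the gene start in kb, positive in the direction of transcription. Circles are ATAC peaks coloured as opened (red), closed (blue) or other (grey), and triangles at the foot are mESC Cdx2 ChIP peaks with area by summed reads. The highest red points at Zfp42 and Esrrb lie above Cdx2 triangles, and Klf2 has a row of blue points with 1 triangle.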

How the data were processed

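The authors deposited RNA-seq counts per gene for 20 mESC libraries (2 tables of replicates) and for RMES cells (1 table per allele), ATAC-seq counts per peak and ChIP-seq counts per peak. Per the labels, reads were processed with STAR 2.7.0d, Bowtie2 2.3.4.3, Picard 2.6.0, cutadapt 2.6 and MACS2. The deposited counts were used as whole numbers, and the count tables' gene lengths gave CPM per kb. The rat-genome ChIP table was not used here.

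Counts were filtered and scaled by trimmed mean of M-values and fitted with edgeR 4.0.16 (quasi-likelihood test, Benjamini-Hochberg adjustment over all genes tested, threshold 0.05, with 2-fold where stated). Contrasts with WT and among mESC lines came from 1 fit of 10 conditions, changes 1 to 3 from an additive fit of 16 libraries, and RMES alleles from separate fits, with interactions for differences between responses. DESeq2 1.42.0, its size factors, no filter, the replicate number as a block and each library left out were alternatives. ATAC reads were scaled to the mean total with a pseudocount of 1, with 95% exact counting intervals that cover counting error only. The fitting code was tested on simulated data.

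The 10 members, the gene lists and the tests were chosen with earlier results of these data known. Genes named beside the members are the largest rise and fall past the threshold per list and the 2 genes most correlated with each member. Lifr, which did not pass 2-fold, was chosen after its values were seen. The depth of each library is given with the results and limits the precision of low counts.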

Additional observations from a re-analysis of the deposited data

Results flagged for a closer look

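The response to Cdx2 differed between the rat and the mouse allele of the same RMES libraries for 5 of the 9 members tested, by an interaction test in edgeR. Of all genes, 62.1% passed this test, so the count does not set the members apart. The difference, rat less mouse on the log2 scale, was -2.70 for Prdm14, -1.06 for Esrrb, -0.32 for Tbx3, 0.50 for Tfcp2l1 and 0.12 for Klf2. Klf2 lost its call without either WT library. Mitochondrial genes also changed species between WT and induced RMES libraries, and their part in these values was not tested.

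The response of the RMES mouse allele differed from that of mESCs for 8 of the 10 members, by the same kind of test, where 53.2% of all genes differed. The difference, RMES less mESC on the log2 scale, was -2.22 for Tfcp2l1, -2.22 for Fbxo15, -2.21 for Klf5, -1.33 for Klf4, -1.31 for Tbx3, -0.96 for Zfp42, -0.90 for Nr0b1 and -0.32 for Esrrb. For Tfcp2l1 and Klf5 the gap lay in WT, with induced levels close, and for Fbxo15 mainly after induction. WT RMES cells already had Cdx2 RNA, and its part in these values was not tested.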

How the results depend on the processing

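Of the members' values under the alternatives, 1644 kept direction and side of the threshold, 33 lost the call, 14 gained it and 20 changed sign. With an adjusted p alone and no fold threshold, genes called against WT were 11158 (mCdx2-OE), 11294 (rCdx2-OE), 9728 (R1), 9743 (R2), 10189 (R3), 9870 (R12), 10477 (R13), 10635 (R23) and 10682 (R123), with 10, 9, 9, 9, 9, 9, 9, 8 and 8 members, and 13823 and 12069 on the RMES mouse and rat alleles. Between mCdx2-OE and rCdx2-OE, genes called numbered 1 without the filter, 1 with the replicate block, 21 with DESeq2 and 0 to 1 with a library left out. Members called in R2 were 1 without the filter, 0 to 2 with a library left out (2 without WT replicate 2) and 1 without replicate 1 of both conditions. In R123 they were 3 to 5 with a library left out, 5 without R123 replicate 2 and 5 without replicate 2 of both conditions. Change 1 called 1 gene without the filter and 24 with DESeq2, and change 2 called 2 with DESeq2. The Cdx2 level called 44 genes without the filter, 1368 with the replicate block, with 1 member (Prdm14), and 307 without mCdx2-OE. Between RMES alleles 4 to 8 members passed with a library left out.

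Zfp42 changed sign near 0 in R123 (-0.0098 without the filter, -0.020 to 0.037 with a library left out, -0.040 without replicate 2 of both), in R3 (-0.13 to 0.036 with a library left out), R13 (-0.13 to 0.019) and R23 (-0.081 to 0.039, and the 3 at 0.040, 0.018 and 0.041 without replicate 1 of both) and between mCdx2-OE and rCdx2-OE (-0.083 to 0.18). Klf5 changed sign for the Cdx2 level (0.095 without mCdx2-OE) and between alleles (-0.0075 with DESeq2 size factors, -0.10 to 0.13 with a library left out), Klf4 between alleles (-0.12 to 0.19) and Klf2 between RMES cells and mESCs (0.0049 without the filter). The cause was not tested.

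Near the members, ATAC peaks past 2-fold numbered 23 without scaling, of which 8 closed, and 75 within 100 kb, of which 55 closed. Cdx2 peaks numbered 8 within 5 kb, 86 within 100 kb, 15 among the upper peaks by reads and 48 over gene bodies with 30 kb around them (a window chosen after seeing the data), and 4 ATAC peaks were at least 50% covered by a Cdx2 peak. Replicate 1 less replicate 2 was correlated between conditions at r of -0.26 to 0.73 over 45 pairs. Pairs with WT were all negative, at -0.16 to -0.033, so same-numbered replicates deviated together in some pairs of induced lines only. Cdx2 was also higher in replicate 1 of every mutant. The main fits took no pairing from the numbers, and the part of a replicate effect shared by induced lines in the members' values was not settled. With the replicate block, Tbx3 in rCdx2-OE (log2 0.17), Esrrb in R23 (0.19) and R123 (0.18) and Tbx3 for change 3 (-0.18) passed.

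RMES constructs and ATAC conditions had 1 library each, which limits them to counting error or to a pooled spread, and WT mESC libraries were sequenced deeper than induced ones.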
